A study of Mus musculus with 2 samples.

Results

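The 41 core interferon-stimulated genes, which interferon is known to induce, were followed in mouse neutrophils cultured with or without tumor exosomes. They were chosen by symbol as a fixed list, with earlier results of these data known. All 41 symbols were found in both expression tables, which hold 35522 features each. To learn how exosomes of colon cancer stem cells alter neutrophils, the study sorted CD11b-positive, Ly6G-high and Ly6C-low or -negative cells from bone marrow of tumor-free Balb/C mice. Both cultures received 10 ng/ml GM-CSF, a growth factor of myeloid cells, for 3 days. The PBS culture received PBS alone, and the exosome culture received 20 μg/ml of exosomes from SDCSCs, the stem-like cells obtained when CT26, a mouse colon carcinoma line, is grown into spheres without serum. How many animals gave cells to each culture is not given in the sources used here. Polyadenylated RNA was sequenced, and each group holds 1 library, so no difference could be tested against the spread between cultures and no p-value was computed.

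Each value is an RPKM, the reads of a gene scaled by the length of its exons and by the mapped reads of its library. Only genes at 0.25 RPKM or more in each library were tested. A gene counted as called up where the exosome value was 2 or more times the PBS value, and as called down where it was 0.5 times or less. Mapped reads, estimated from the smallest values, were 65.97 M (M, mega) in PBS and 79.13 M in the exosome library. The 95% interval given beside a log2 ratio is an exact Clopper-Pearson interval of the estimated reads and covers counting error only. In bulk RNA, a change in the share of a cell type and a change in RNA per cell cannot be told apart.

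Type I interferons signal through a receptor pair made by Ifnar1 and Ifnar2 and through the kinases Jak1 and Tyk2, which phosphorylate STAT proteins such as Stat2. These join Irf9 to form the complex ISGF3, which binds interferon-stimulated response elements (ISREs) in the promoters of target genes. Interferon-gamma uses another receptor, and its signal ends at gamma-activated sites (GAS). The proteins made in response bind or cut viral RNA, block entry or release of virus, attach the ubiquitin-like protein Isg15 to other proteins, or damp the signal itself.

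The promoter sequence of 3 genes is shown first because 2 of them were called up more than 4-fold and Ifitm6, a neighbor of Ifitm2, was lower with exosomes. Isg15 and Ifitm2 hold the ISRE core GAAANNGAAA in the 250 bases before their start, in capitals, and the RefSeq window of Ifitm6 holds only the GAS core TTCNNNGAA, also in capitals. The sequences are RefSeq promoters of build GRCm38.p6, written along the strand of the gene.
Isg15, chr4:156200819-156201068, minus strand: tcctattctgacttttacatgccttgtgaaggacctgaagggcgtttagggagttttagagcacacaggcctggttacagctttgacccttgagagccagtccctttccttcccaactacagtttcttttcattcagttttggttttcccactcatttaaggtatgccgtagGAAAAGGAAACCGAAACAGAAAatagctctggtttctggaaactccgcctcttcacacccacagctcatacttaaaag
Ifitm2, chr7:140955962-140956211, minus strand: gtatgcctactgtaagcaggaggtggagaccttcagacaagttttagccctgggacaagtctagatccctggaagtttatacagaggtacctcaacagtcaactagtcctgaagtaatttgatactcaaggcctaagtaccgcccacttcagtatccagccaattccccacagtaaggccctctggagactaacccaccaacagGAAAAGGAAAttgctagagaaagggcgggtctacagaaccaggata
Ifitm6, chr7:141016893-141017142, minus strand: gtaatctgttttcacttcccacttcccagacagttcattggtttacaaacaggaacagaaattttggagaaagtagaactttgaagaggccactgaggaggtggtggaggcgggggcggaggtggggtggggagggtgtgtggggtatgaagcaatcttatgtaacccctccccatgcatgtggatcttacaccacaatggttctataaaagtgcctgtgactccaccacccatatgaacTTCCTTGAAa
The capitals in Isg15 are 3 overlapping matches that start at positions -78, -72 and -66, where the annotated first base of the gene is 0. The single match of Ifitm2 starts at position -46, and the GAS core of Ifitm6 at position -10. These starts are those of RefSeq. GENCODE places the start of Isg15 at the same base and that of Ifitm2 within 26 bases, but the RefSeq start of Ifitm6 lies 1032 bases downstream of its GENCODE start. The sequence shown for Ifitm6 therefore falls inside the gene as GENCODE draws it, and the sequence before that other start was not searched.

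RefSeq promoters of 300 bases, 250 before and 50 after the start, were at hand for 33 of the 41 genes. Ifi27l2a, Mx1, Mx2, Oas2, Parp9, Parp14, Rtp4 and Usp18 were not among them. The ISRE core was found on either strand in 12 of 33 genes (36.4%), against 1079 of 27025 genes in the whole promoter set (3.99%). The GAS core, which reads the same on both strands, was found in 8 of 33 genes (24.2%), against 9.55% of the whole set. Both cores were found in 3 genes, and neither in 16. A GAS core without an ISRE core was found in Ifitm6 and also in Ifit2, Ifi35, Adar and Isg20. A gene with several annotated starts counts when any of its windows holds a match, and the GAS core of Adar belongs to a start 15696 bases downstream of the first. For 28 of the 33 genes a RefSeq start lay within 100 bases of the GENCODE start, the others being Dtx3l, Ifitm1, Ifitm6, Lgals3bp and Nmi. The other 10 genes with an ISRE core are shown with 10 bases on each side of 1 match, in capitals, so that the matches of strongly and weakly changed genes can be set side by side. Where the core lies on the opposite strand the capitals read as its reverse complement.
Oas1g, chr5:120887612-120887641, minus strand: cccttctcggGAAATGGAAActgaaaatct
Bst2, chr8:71537577-71537606, minus strand: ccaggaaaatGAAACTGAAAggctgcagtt
Oas1a, chr5:120907526-120907555, minus strand: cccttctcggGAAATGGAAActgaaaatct
Ifit3, chr19:34583363-34583392, plus strand: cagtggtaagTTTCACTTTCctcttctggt
Ifitm3, chr7:141010723-141010752, minus strand: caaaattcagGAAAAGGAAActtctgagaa
Ifit1, chr19:34640794-34640823, plus strand: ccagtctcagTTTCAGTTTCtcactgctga
Oas3, chr5:120777715-120777744, minus strand: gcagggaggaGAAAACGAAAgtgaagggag
Rsad2, chr12:26456553-26456582, minus strand: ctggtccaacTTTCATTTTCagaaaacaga
Lgals9, chr11:78984890-78984919, minus strand: atagctgtggTTTCTGTTTCctagctcagc
Ddx60, chr8:61928058-61928087, plus strand: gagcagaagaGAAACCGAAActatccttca
The windows of Oas1g and Oas1a are the same 30 letters, at different places on chromosome 5. A match to these letters is a description of the sequence and does not show that a factor binds there.

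Of the 41 genes, 38 were tested. Of these, 36 were higher and 2 were lower in the exosome library than in PBS. Most of all genes tested were higher too, since their median log2 ratio, given below, was positive. The number called up was 29 (76.3%), beside 3056 of 9698 genes tested (31.5%). None was called down, beside 545 genes (5.62%). The median log2 ratio was 2.07 for the 38 genes and 0.53 for all genes tested. At least a 4-fold increase was found for 21 of the 38 genes (55.3%), beside 8.52% of all genes tested, and 6 of them reached 8-fold. The summed RPKM of the 41 genes went from 884.03 to 3398.2, which is 0.247% and 0.98% of the summed RPKM of each library. Ifitm2, Ifitm1 and Ifi27l2a together made 65.9% of that gain. The remaining genes were Ifi44, below the limit in PBS, and Mx1 and Mx2, listed at 0 in both libraries.

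**Figure D1:**
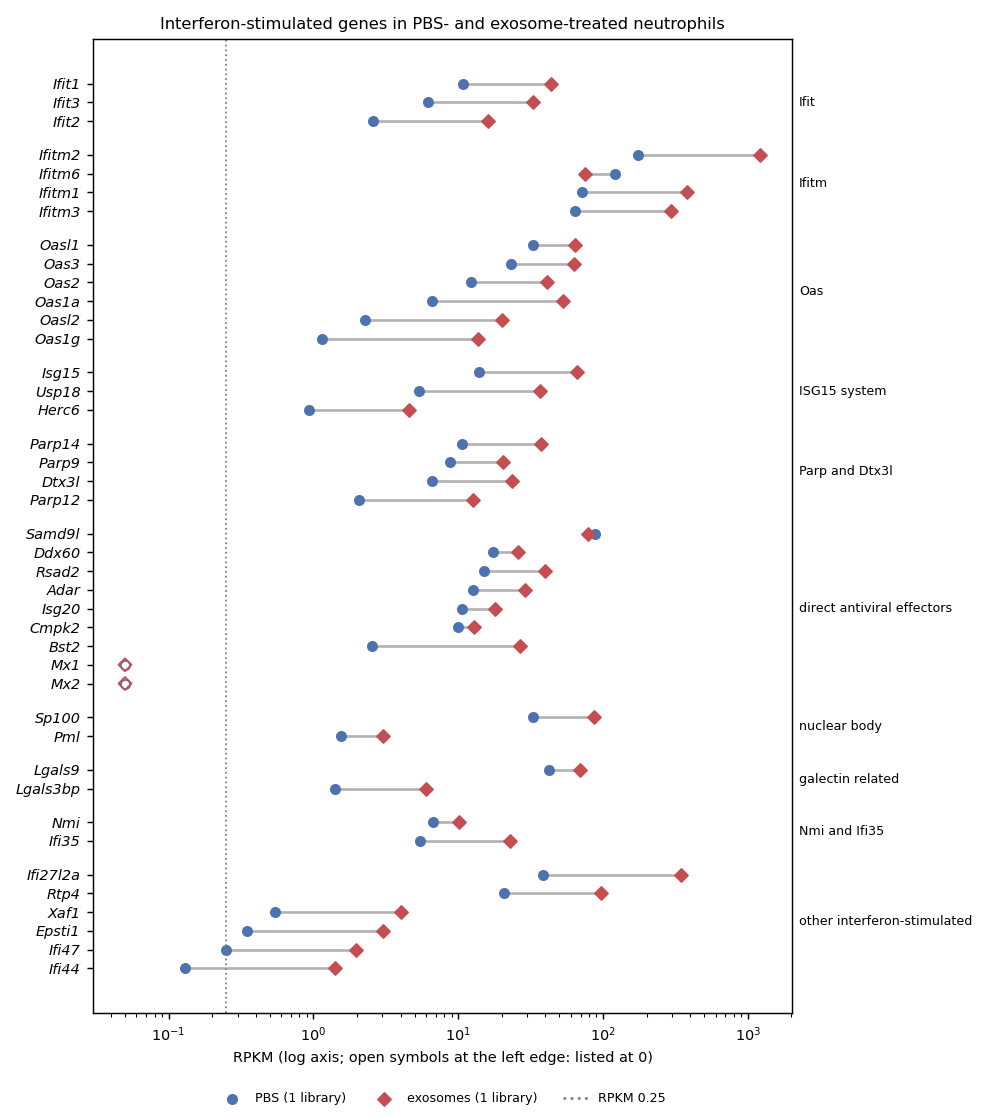
RPKM of each of the 41 genes on a log axis, with 1 circle for the PBS library and 1 diamond for the exosome library, grouped by role; open symbols at the left edge are genes listed at 0. The diamond lies to the right of the circle for every gene above 0 except Ifitm6 and Samd9l, and Ifitm2 reaches the highest level, at 1214.94 RPKM.

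The Ifit genes encode proteins that bind viral RNA with an unusual 5′ end and block its translation. Ifit1 was 10.78 RPKM in PBS and 43.95 RPKM with exosomes, a 4.08-fold increase. Ifit2 went from 2.59 to 15.98 RPKM (6.17-fold) and Ifit3 from 6.19 to 32.77 RPKM (5.29-fold). All 3 were called up, with a median log2 ratio of 2.40, and the intervals of Ifit1 (1.96 to 2.10) and Ifit2 (2.51 to 2.75) did not meet. They lie within 99.3 kb on chromosome 19 (GRCm38, positions 34550694 to 34650009). Of the 50-base stretches of Ifit3, 51.24% also occur in Ifit3b, so reads of that pair can be assigned to either gene, and the value of Ifit3 is uncertain to that extent. Ifit2 shares no such stretch with another gene.

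The Ifitm genes encode small membrane proteins, several of which keep enveloped viruses from fusing with the cell. Ifitm2 was 175.52 RPKM in PBS and 1214.94 RPKM with exosomes. That is a 6.92-fold increase, with a log2 ratio of 2.79 (95% interval 2.76 to 2.83), and its level moved from percentile 98.3 to percentile 99.9 of the features above 0. Ifitm1 went from 71.11 to 381.49 RPKM (5.36-fold) and Ifitm3 from 64.13 to 296.66 RPKM (4.63-fold). Ifitm6 moved the other way. It was 120.41 RPKM in PBS and 74.93 RPKM with exosomes, a log2 ratio of -0.68 (95% interval -0.74 to -0.63). Ifitm6 was thus the second most abundant of the 4 in PBS and the least abundant with exosomes. In the GENCODE annotation the start of Ifitm6 is 7154 bases from that of Ifitm3, and all 4 genes fall within 63.1 kb on chromosome 7 (140954837 to 141017924). Ifitm6 shares no 50-base stretch with another gene, whereas 48.51% of those of Ifitm2 are shared, chiefly with Gm45717 (36.14%), so the level of Ifitm2 is uncertain where reads fit both.

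The Oas genes encode sensors of double-stranded RNA that make 2′-5′ oligoadenylates, and mouse Oasl1 is a relative that lacks this enzyme activity. Oas1g had the largest ratio of all 38 genes tested. It was 1.15 RPKM in PBS and 13.71 RPKM with exosomes, an 11.9-fold increase with a log2 ratio of 3.58 (95% interval 3.34 to 3.82). Oas1a went from 6.6 to 53.09 RPKM (8.04-fold), and Oasl2 from 2.28 to 20.07 RPKM (8.8-fold). Oas1a and Oas1g share 57.57% and 54.72% of their 50-base stretches with other genes, almost all with each other, so their separate values are uncertain. Oas2 was 12.3 RPKM in PBS and 41.14 RPKM with exosomes (3.34-fold). Oas3, the most abundant of those called up in PBS, went from 23.03 to 62.67 RPKM (2.72-fold). Oasl1 went from 32.63 to 64.34 RPKM, a ratio of 1.97 just under the limit, with a 95% interval of the log2 ratio from 0.93 to 1.03 that holds the limit. The number called up was 5 of 6 (83.3%, beside 31.5% of all genes tested). The levels in PBS ran from Oasl1 through Oas3, Oas2, Oas1a and Oasl2 down to Oas1g, and the ratios followed the reverse of that order. The PBS level is the denominator of each ratio, so these orders are not independent. Ratios over all genes tested also depended on level, as given below. Oas1a, Oas1g, Oas2 and Oas3 lie within 177 kb on chromosome 5 (120730333 to 120907521).

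Isg15 is a ubiquitin-like protein that is joined to other proteins, Herc6 is the main ligase for it in the mouse, and Usp18 removes it and also restrains signalling at the interferon receptor. Isg15 was 13.87 RPKM in PBS and 65.81 RPKM with exosomes, a 4.74-fold increase with a log2 ratio of 2.25 (95% interval 2.13 to 2.36). Usp18 went from 5.33 to 36.44 RPKM (6.84-fold) and Herc6 from 0.93 to 4.58 RPKM (4.92-fold). The modifier, its ligase and its protease were all called up. Herc6 shares 23.84% of its 50-base stretches with Gm45193. Of the enzymes that act before the ligase, Uba7, which activates Isg15, went from 14.39 to 30.58 RPKM (2.13-fold) and Ube2l6, which carries it, from 1.75 to 6.8 RPKM (3.89-fold). Trim25 and Arih1, ligases of wider use, stood at 60.82 and 67.58 RPKM and at 34.43 and 32.9 RPKM, both within 2-fold. Of the list of 7 genes of this system, 5 were called up (71.4%, beside 31.5% of all genes tested). With the median of all ratios set to 0 the number was 4 (beside 16.8% of all genes), as Uba7 fell below the limit.

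Parp9, Parp12 and Parp14 are members of the ADP-ribosyltransferase family, and Dtx3l is the ubiquitin ligase that pairs with Parp9. Parp12 was 2.08 RPKM in PBS and 12.6 RPKM with exosomes (6.06-fold). Parp14 went from 10.56 to 37.32 RPKM (3.53-fold), Dtx3l from 6.54 to 23.65 RPKM (3.62-fold) and Parp9 from 8.76 to 20.42 RPKM (2.33-fold). All 4 were called up, with a median log2 ratio of 1.84. The starts of Parp9 and Dtx3l are 681 bases apart on opposite strands of chromosome 16, and their log2 ratios were 1.22 (95% interval 1.15 to 1.29) and 1.85 (95% interval 1.79 to 1.92). Counting error alone thus leaves their ratios apart. In the rest of the family, 1 of 12 genes tested was called up (8.33%, beside 31.5% of all genes tested). That gene was Parp2, a DNA-repair enzyme, which went from 0.97 to 6.84 RPKM (7.05-fold). Both others often counted among antiviral genes stayed within 2-fold, Parp10 at 32.52 and 25.19 RPKM and Zc3hav1 at 28.11 and 39.44 RPKM.

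The direct antiviral effectors were divided, with 3 of 7 genes tested called up (42.9%, beside 31.5% of all genes) and a median log2 ratio of 0.77 (beside 0.53). Bst2, the tetherin that holds budding virions at the cell surface, was 2.54 RPKM in PBS and 26.77 RPKM with exosomes. That 10.5-fold increase has a log2 ratio of 3.40 (95% interval 3.14 to 3.66). Rsad2, the viperin that makes a chain-terminating nucleotide, went from 15.18 to 39.98 RPKM (2.63-fold). Adar, the enzyme that deaminates adenosine in double-stranded RNA, went from 12.65 to 28.75 RPKM (2.27-fold). With the median of all ratios set to 0, Rsad2 and Adar fell below the limit. That left 1 of 7 called up, beside 16.8% of all genes tested. The number was also 1 after removal of a trimmed mean, beside 16.5%. Isg20, an exonuclease, stood at 10.54 and 18.01 RPKM (1.71-fold) and Ddx60, a helicase, at 17.37 and 25.87 RPKM (1.49-fold), both below the limit. Cmpk2, a mitochondrial nucleotide kinase, was 10.0 RPKM in PBS and 12.78 RPKM with exosomes, a log2 ratio of 0.35 (95% interval 0.28 to 0.43). Its start is 12752 bases from that of Rsad2, whose log2 ratio was 1.40 (95% interval 1.35 to 1.45). Samd9l, a restriction factor of poxviruses, was the most abundant of the group in PBS at 87.54 RPKM and stood at 78.86 RPKM with exosomes. Its log2 ratio was -0.15 (95% interval -0.17 to -0.13). The GTPases Mx1 and Mx2 were listed at 0 in both libraries. RefSeq types both as transcribed pseudogenes, whereas GENCODE types Mx1 as protein-coding and Mx2 as a polymorphic pseudogene. Of the 355 features that RefSeq types as transcribed pseudogenes, 332 (93.5%) were at 0 in both libraries, against 26.9% of its protein-coding features. Whether the type bears on their values was not tested.

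Pml and Sp100 are scaffold proteins of a nuclear body that represses incoming viral DNA. Sp100 was 33.1 RPKM in PBS and 87.29 RPKM with exosomes (2.64-fold). Pml went from 1.54 to 3.03 RPKM, a ratio of 1.97 with a 95% interval of the log2 ratio from 0.82 to 1.14. Lgals9, a galectin, stood at 42.51 and 69.16 RPKM (1.63-fold), and Lgals3bp, a secreted protein that binds galectin-3, at 1.42 and 6.0 RPKM (4.23-fold). Nmi and Ifi35 are partner proteins induced by interferon. Ifi35 was 5.47 RPKM in PBS and 22.85 RPKM with exosomes (4.18-fold), while Nmi was 6.65 and 10.12 RPKM (1.52-fold). As deposited, each of these 3 pairs held 1 gene called up and 1 gene below the limit, beside 31.5% of all genes tested called up. This depended on scaling for Pml and Sp100. The call of Sp100 was lost with the median of all ratios set to 0 (log2 ratio 0.87), and rescaling to TPM added Pml (log2 ratio 1.02).

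The genes left had the highest median log2 ratio of the groups, 2.97, and all 5 tested were called up at least 4-fold. Ifi27l2a, a small hydrophobic membrane protein, was 38.66 RPKM in PBS and 344.45 RPKM with exosomes. This 8.91-fold increase, a log2 ratio of 3.16 (95% interval 3.07 to 3.24), was the largest among those of the 41 genes above 20 RPKM in PBS. Rtp4, a chaperone of receptors, went from 20.8 to 97.23 RPKM (4.67-fold). Xaf1, a partner of an inhibitor of apoptosis, went from 0.54 to 4.05 RPKM (7.5-fold), Epsti1 from 0.35 to 3.02 RPKM (8.63-fold) and Ifi47, a GTPase, from 0.25 to 1.96 RPKM (7.84-fold). These last 3 rest on few reads in PBS, an estimated 93, 43 and 29, and their intervals were the widest. Ifi44 was 0.13 RPKM in PBS, under the limit and about 35 reads, and 1.42 RPKM with exosomes, a ratio of 10.9 with a 95% interval of the log2 ratio from 2.95 to 3.98.

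**Figure D2:**
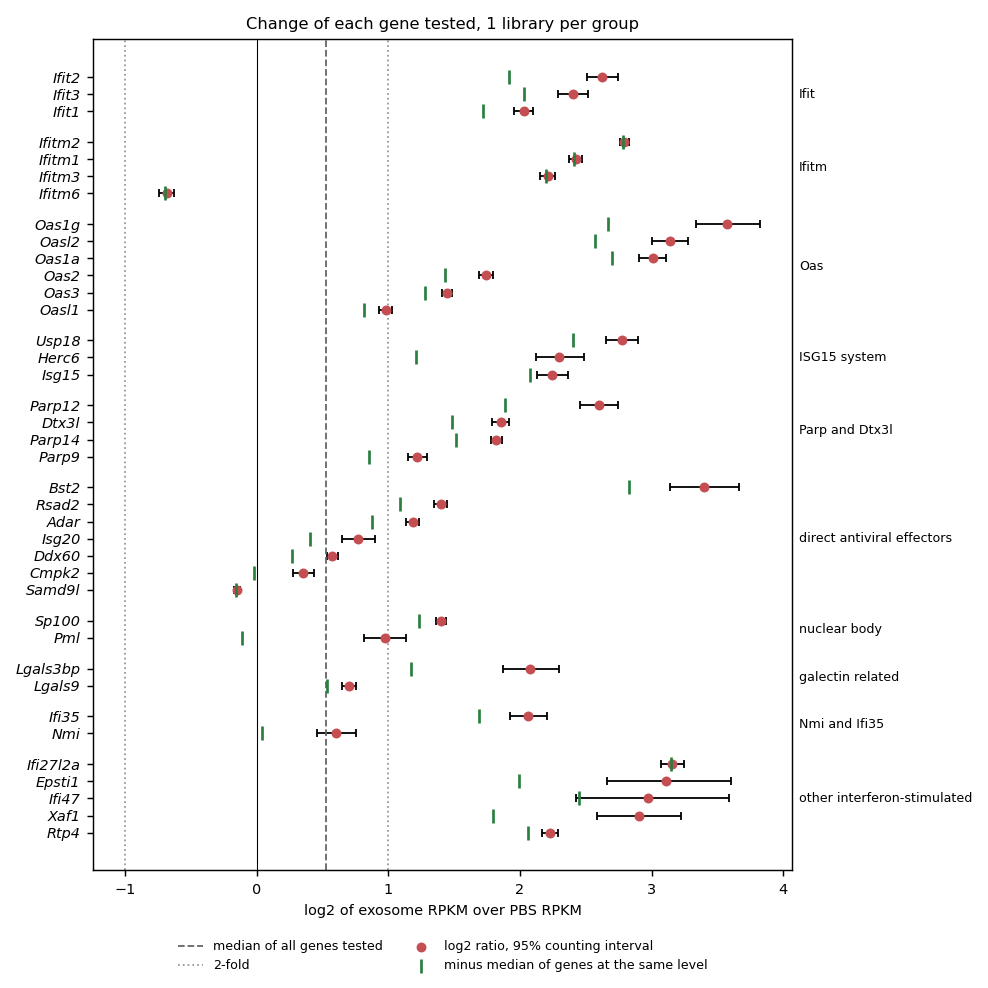
log2 of the exosome over the PBS RPKM of the 38 genes tested, grouped by role, as points with the 95% counting interval as bars; the dashed line is the median of all genes tested (0.53) and the dotted lines mark 2-fold. Green marks give the log2 ratio minus the median of genes at the same level, and they lie above 0 for 34 of the 38 genes.

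Counting error was small beside these ratios. The interval of each of the 29 genes called up lay wholly above 2-fold, and none of the 38 intervals held a log2 ratio of 0. Estimated reads in PBS ran from 29 for Ifi47 to 30783 for Samd9l among the genes tested. Variation between cultures or animals is not part of these intervals.

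Ratios across all genes depended on the level of the gene. When the genes tested were cut into 10 bins of equal size by mean level, the top bin, from 54.6 RPKM upward, had a median log2 ratio of 0.01, with 10.8% called up. The 6 interferon-stimulated genes in that bin were Ifitm1, Ifitm2, Ifitm3, Ifi27l2a, Ifitm6 and Samd9l, and 4 were called up. In bins 2 and 3 from the bottom, 54.1% and 53.2% of all genes were called up. Only 4 of the 38 genes lay there, 3 of them called up, so most of the list sat at levels where increases were less common. After the median of its bin was taken from each ratio, 34 of 38 genes stayed above 0, with a median of 1.60. The 4 below 0 were Ifitm6, Samd9l, Pml and Cmpk2.

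**Figure D3:**
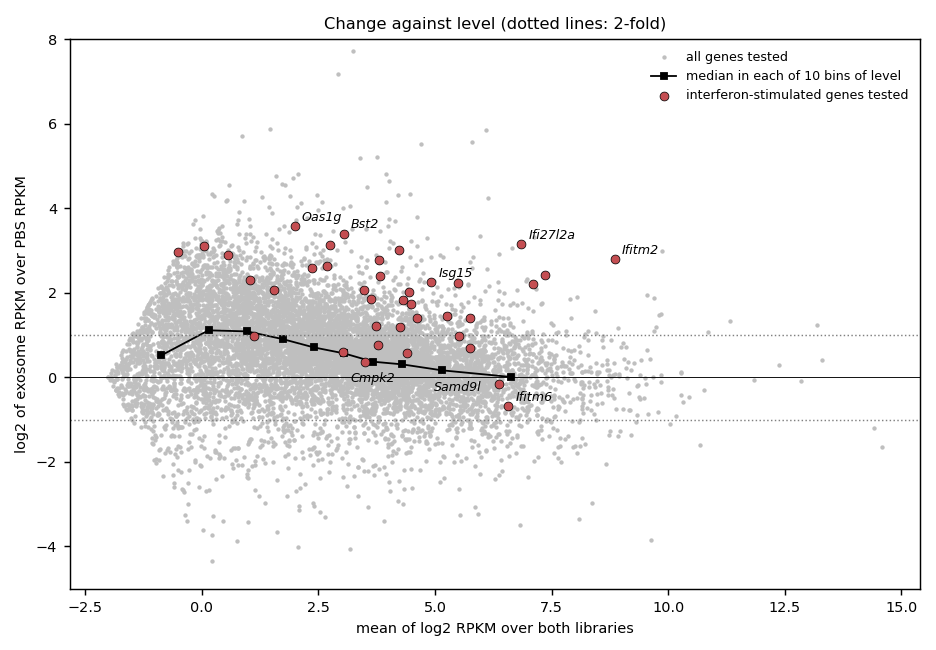
log2 of the exosome over the PBS RPKM (vertical) against the mean log2 RPKM of both libraries (horizontal), with 1 gray point per gene tested, black squares for the median in each of 10 bins of level, and red points for the 38 interferon-stimulated genes. The squares run from 1.11 in bin 2 down to 0.01 in the top bin, and most red points lie above them.

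Ranks within each library do not depend on scaling between libraries. The percentile of a gene among features above 0 was higher in the exosome library for 36 of the 39 genes above 0, and the median percentile went from 75.4 to 87. The same count over all features was not made. Isg15 moved from percentile 80.1 to 94.5, Oas1a from 69.8 to 92.8, and Bst2 from 57.5 to 86.1. Ifitm6 moved from 97.3 to 95.3, Samd9l from 96.2 to 95.5 and Cmpk2 from 75.4 to 74.7.

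The number called up held across other ways to scale and filter the values. It was 24 of 38 with the median of all ratios set to 0 (16.8% of all genes), 24 of 38 after removal of a trimmed mean (16.5%), and 27 of 38 after centring within 10 bins of level (13.3%). Rescaling to TPM, which gives both libraries the same sum, gave 31 of 38 (33%), adding Oasl1 and Pml. An RPKM of at least 1 in both libraries gave 25 of 34 (25.6%), and a limit met in either library with a pseudocount of 0.25 gave 30 of 39 (28.4%). A pseudocount of 1 left 29 of 38 (20.4%), and scaling without S100a8 and S100a9 29 of 38 (25.8%). In these 8 settings, 24 genes were always called up where they were tested. Adar, Oas3, Parp9, Rsad2 and Sp100 were called up as deposited but not in each of them. Ifitm6 was called down with the median set to 0 and after removal of a trimmed mean. The signs of Cmpk2 and Pml turned under some centring, with lowest log2 ratios of -0.19 and -0.11.

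The genes that carry the interferon signal are given next, and their counts are to be read beside the 31.5% of all genes tested that were called up. No interferon gene reached the limit of 0.25 RPKM. Of 21 ligands, 17 were listed and 11 of these stood at 0 in both libraries, and the summed RPKM of the list was 0.32 in PBS and 0.329 with exosomes. Ifnb1 was 0.04 and 0.03 RPKM, and Ifng was 0.19 and 0.12 RPKM. Transcripts of the ligands in other cells or earlier than day 3 were not measured. Of the receptor chains, Ifnar1 stood at 24.36 and 29.76 RPKM and Ifnar2 at 115.55 and 102.11 RPKM. Ifngr2 stood at 84.58 and 125.42 RPKM, and Il10rb, shared by the interferon-lambda and interleukin-10 receptors, at 74.85 and 128.86 RPKM. Ifngr1, the binding chain for interferon-gamma, went from 47.6 to 113.81 RPKM (2.39-fold) and was the only 1 of 5 called up (20%). That call was lost with the median of all ratios set to 0, where its log2 ratio was 0.73, and after removal of a trimmed mean. The receptors were thus present in PBS already.

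Of the kinases, Jak1 stood at 145.84 and 111.39 RPKM and Jak2 at 26.98 and 32.09 RPKM, while Tyk2 went from 6.22 to 12.58 RPKM (2.02-fold). Of the ISGF3 subunits, Irf9 went from 18.54 to 44.14 RPKM (2.38-fold). Stat2 stood at 6.22 and 9.81 RPKM (1.58-fold), below the limit, and Stat3 at 64.92 and 65.01 RPKM. With Tyk2 and Irf9, 2 of 7 genes were called up (28.6%). Neither call held with the median of all ratios set to 0, where the log2 ratios were 0.49 and 0.73, or after removal of a trimmed mean. Irf7, the factor that amplifies type I interferon production, stood apart from its family. It was 22.55 RPKM in PBS and 136.1 RPKM with exosomes, a 6.04-fold increase with a log2 ratio of 2.59 (95% interval 2.55 to 2.64). The factors named next stayed within 2-fold. Irf1 was 19.55 and 15.04 RPKM, Irf2 50.73 and 43.27 RPKM, and Irf3 17.43 and 24.81 RPKM. Irf5 was 19.98 and 12.18 RPKM, Irf8 5.82 and 5.05 RPKM, and Irf4 2.13 and 1.9 RPKM.

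**Figure D4:**
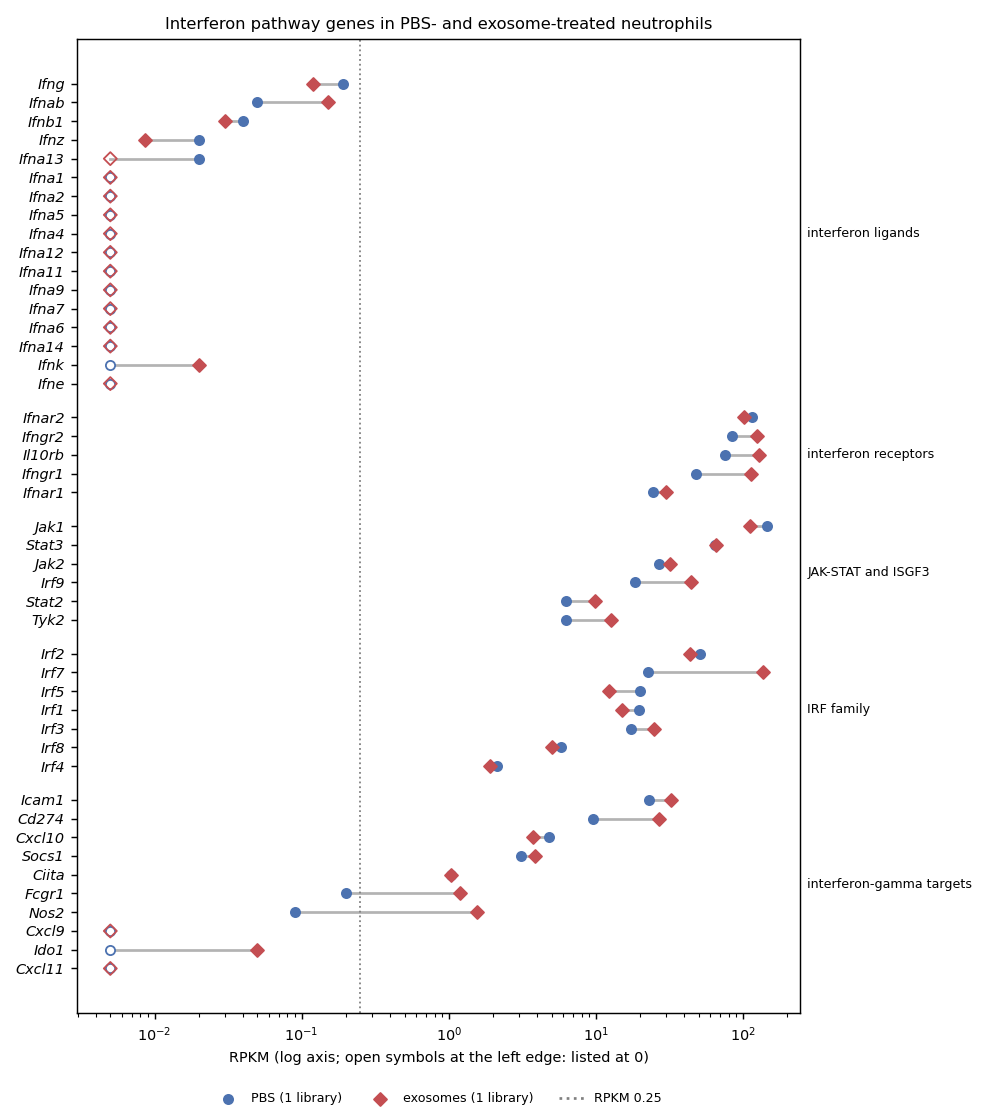
RPKM of genes of the lists of interferon ligands, receptors, JAK-STAT and ISGF3 genes, interferon-regulatory factors and interferon-gamma targets on a log axis, with 1 circle for PBS and 1 diamond for exosomes; open symbols at the left edge are genes listed at 0. All ligands lie left of the dotted line at 0.25 RPKM, while Irf7 moves from 22.55 to 136.1 RPKM.

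Other genes tied to the pathway varied in direction. Of 12 negative regulators tested 3 were called up (25%, beside 31.5% of all genes). Besides Usp18 these were Socs3, a feedback inhibitor of cytokine receptors, from 22.41 to 73.26 RPKM, and the phosphatase Ptpn11, from 11.13 to 22.27 RPKM, a call lost with the median of all ratios set to 0. Socs1, the feedback inhibitor most tied to interferon, stood at 3.09 and 3.86 RPKM. Among relatives of the Ifit, Ifitm and Oas genes, 3 of 5 tested were called up. I830012O16Rik, an Ifit-like gene, went from 10.68 to 39.25 RPKM, Ifitm5 from 0.75 to 3.51 RPKM and Oas1c from 1.84 to 5.91 RPKM. The call of Oas1c was lost after centring within 10 bins of level, where its log2 ratio was 0.78. Gm14446, another gene of the Ifit family, went from 1.8 to 0.45 RPKM and was called down.

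Of 7 interferon-gamma targets tested 1 was called up (14.3%, beside 31.5% of all genes). This was Cd274, the ligand PD-L1, from 9.5 to 26.74 RPKM, a call lost with the median of all ratios set to 0 (log2 ratio 0.97) and after removal of a trimmed mean. Nos2, the inducible nitric oxide synthase, and Fcgr1, a high-affinity IgG receptor, were under the limit in PBS. Nos2 was 0.09 RPKM in PBS and 1.56 RPKM with exosomes, with a 95% interval of the log2 ratio from 3.53 to 4.75. Fcgr1 was 0.2 and 1.19 RPKM, with an interval from 2.06 to 3.14. Cxcl10 stood at 4.78 and 3.71 RPKM and Ciita at 1.04 and 1.03 RPKM, and Cxcl9 and Cxcl11 were listed at 0 in both. Over all these lists without the 41 genes, 13 of 54 genes were called up (24.1%) and 2 down, beside 31.5% and 5.62% of all genes tested. Their median log2 ratio was 0.40, beside 0.53 for all genes tested.

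Marker genes of cell types also differed between the 2 libraries, in both directions. Of 15 neutrophil markers 11 were called down and none up, beside 5.62% down and 31.5% up of all genes tested. Their summed RPKM went from 85078 (23.7% of the library) to 30887 (8.9%). S100a8 went from 32822.83 to 14381.81 RPKM, Ly6g from 286.96 to 56.19 RPKM and Cxcr2 from 780.77 to 324.93 RPKM. At least 4-fold decreases were found for 7 of the 15, among them the granule genes Camp (381.38 to 33.92 RPKM), Ngp (862.34 to 85.01 RPKM) and Ltf (143.98 to 15.09 RPKM). Padi4 went from 168.72 to 20.23 RPKM and Retnlg, the most reduced, from 3021.0 to 208.33 RPKM. Higher within 2-fold were Itgam, at 312.74 and 393.4 RPKM, Mpo, at 5.48 and 8.42 RPKM, and Elane, at 2.64 and 3.31 RPKM. Mmp9 was lower within 2-fold, at 849.26 and 607.79 RPKM. Of 15 monocyte and macrophage markers listed, 9 were tested, with 5 called up (55.6%, beside 31.5% of all genes) and 1 down. The summed RPKM of the list was 467.13 and 711.81. Csf1r went from 58.1 to 152.64 RPKM and Emr1 from 20.91 to 151.51 RPKM, while Ly6c2 went from 184.41 to 37.12 RPKM. The call of Csf1r was lost with the median of all ratios set to 0, where its log2 ratio was 0.87. Cx3cr1 and C1qa stood at 0.1 and 0.18 RPKM in PBS and at 1.39 and 1.42 RPKM with exosomes. The sums of plasmacytoid dendritic cell markers were 15.59 and 38.32 RPKM, of which Bst2 makes the greater part with exosomes. Of 3 tested, 2 were called up (66.7%, beside 31.5% of all genes), Bst2 and Tcf4 (0.98 to 3.53 RPKM). Ly6d stood at 11.43 and 7.7 RPKM and Siglech at 0.43 and 0.17 RPKM. The sums were 33.947 and 21.49 RPKM for dendritic cells, 108.12 and 66.87 RPKM for B cells, and 58.7 and 8.24 RPKM for T cells. Of the T cell sums Cd3d made 56.44 and 7.02 RPKM, while Cd3e stood at 0.06 and 0.04 RPKM, Lck at 0.95 and 0.93 RPKM, and Trac at 0 in both. For NK cells they were 0.29 and 0.729 RPKM, for erythroid cells 1.57 and 0.145 RPKM, and for colon carcinoma cells 0.67 and 0.245 RPKM, with Krt8 at 0 in both. The part of these shifts in the values of the interferon-stimulated genes was not tested.

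Promoter matches were set beside the ratios as a description. Of 18 genes with a promoter that increased at least 4-fold, 8 held the ISRE core (44.4%), and of 14 that changed less, 4 did (28.6%). The 12 genes with the core had a median log2 ratio of 2.23 and the 20 tested without it 1.96. Among all genes tested with a promoter, the ISRE core was held by 5.04% of those called up and by 3.47% of the others, and the GAS core by 9.51% and 7.72%. Lgals9 and Ddx60 hold 2 ISRE cores each at ratios of 1.63 and 1.49, and Oasl2 and Xaf1, at 8.8 and 7.5, hold neither core in these 300 bases. The plot of match positions shows that the ISRE cores of Ifitm3 and 1 of those of Lgals9 lie after the annotated start.

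**Figure D5:**
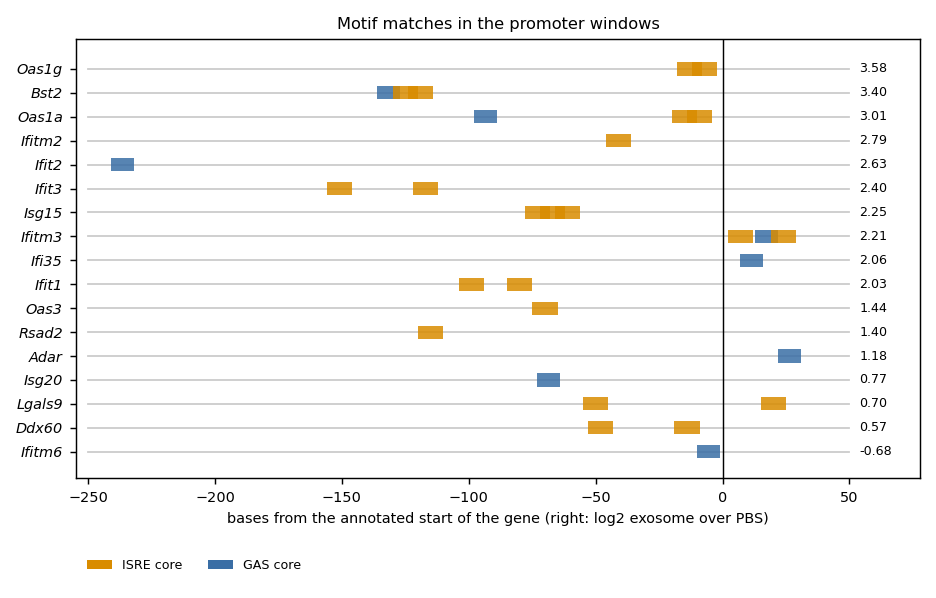
Positions of ISRE cores (orange) and GAS cores (blue) in bases from the annotated start of each gene that holds at least 1 match, from 250 before to 50 after it, with the log2 exosome over PBS ratio at the right; genes are ordered by that ratio. ISRE cores occur from Oas1g, at 3.58, down to Ddx60, at 0.57. A GAS core alone is held by Ifit2 (2.63), Ifi35 (2.06), Adar (1.18), Isg20 (0.77) and, in its RefSeq window, Ifitm6 (-0.68).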

How the data were processed

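RNA of 1 PBS-treated and 1 exosome-treated culture was sequenced as polyadenylated RNA on an Illumina instrument. After quality trimming, the authors ran CLC Genomics Workbench and deposited an RPKM for each of 35522 features, against mm10 per the submitters' notes. The annotation used, how reads that fit several genes were handled and any scaling between libraries are not given in the sources used here. RPKM is rounded to 0.01, which limits ratios of low genes.

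Some genes of the lists are counted there but not reported here by name. The members and lists were chosen with earlier results of these data known. The genes named are all 41 members, the receptors, JAK-STAT genes and interferon-regulatory factors, and genes of the other pathway lists changed at least 4-fold. Other genes named, such as Uba7, Ube2l6, Socs3 and Cd274, were chosen after their values were seen. The rule also holds the first 4 markers of each cell type and markers changed at least 4-fold, of which only some are printed beside the sums of their lists.

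Ratios were taken with no pseudocount on the deposited RPKM values, since RPKM are not counts and no count model applies. A gene needed an RPKM of at least 0.25 in both libraries and a ratio of 2, the rule of the study. Mapped reads were estimated from the values below 0.01, which for many features stand for 1 read, with transcript lengths of GENCODE for build GRCm38. In PBS 177 of 918 such features agreed on 1 total and in the exosome library 210 of 1064. Without any lengths, 204 of 415 features gave a depth ratio of 1.199. Intervals are exact Clopper-Pearson at 95%, cover counting error only, and were computed from reads estimated in this way. Shared sequence is the percent of a gene's 50-base stretches found in transcripts of another gene. Motifs were searched on both strands of RefSeq promoters of GRCm38.p6. The scripts (Python 3.11.15, numpy 2.4.6, pandas 2.3.3, scipy 1.17.1, matplotlib 3.10.9) were tested on simulated data. The 8 alternatives planned and 1 added later are given in the closing section.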

Additional observations from a re-analysis of the deposited data

How the results depend on the processing

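Each group holds 1 library, so leaving out a replicate was not possible, and the spread between cultures is unknown for every ratio, while depth limits chiefly genes near an RPKM of 0.25. No paired analysis was possible because the labels carry no replicate numbers and each group has 1 library. The count of interferon-stimulated genes called up stayed within 1.5 times its value in each of the 9 settings, and their median log2 ratio stayed above that of all genes. With the median of all ratios set to 0, all genes tested gave 1634 up and 1282 down with a median of 0.0000, 1 interferon-stimulated gene was called down, and the other pathway genes gave 7 up and 5 down with a median of -0.1219. Removal of a trimmed mean gave 1596 up, 1321 down and a median of -0.0150 for all genes, 1 interferon-stimulated gene down, and 7 up, 5 down and a median of -0.1369 for the pathway genes. Centring within 10 bins of level gave 1291 up, 1301 down and a median of 0.0000, with 8 pathway genes down and a pathway median of 0.0178. TPM gave a median of 0.5740 over all genes. An RPKM of at least 1 gave 1958 up, a median of 0.4490 and 1 pathway gene down. A pseudocount of 1 gave 1976 up, a median of 0.4097 and 1 pathway gene down. A ratio of at least 4 gave 826 up and 111 down, with 3 and 1 pathway genes. Scaling without S100a8 and S100a9, chosen after seeing the data, gave a median of 0.3533. The shifts under centring and filters follow from the construction of each setting, and other causes were not tested. Of the values for single genes and smaller lists, 492 were labelled as the same and 294 as moved. The ratio of a gene was set against its counting interval, and a count against 1.5 times its value. The median of a list was set against an interval of the median over its genes. The smallest lists have no such interval, so any change of their median was labelled as moved. No call turned from up to down or from down to up.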

Other observations

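Symbols in which Ifi is followed by a digit or by h, and that were not on the list, were looked at after their values were seen. Of 8 such genes 6 were tested, and 4 were called up and none down, beside 31.5% and 5.62% of all genes tested. Ifi202b, a DNA-binding protein of the Ifi200 family, was 0.59 RPKM in PBS and 7.09 RPKM with exosomes, a ratio of 12 with a 95% counting interval of the log2 ratio from 3.23 to 3.97. Ifih1, the double-stranded RNA sensor MDA5, was 1.89 RPKM in PBS and 12.69 RPKM with exosomes (6.71-fold). Ifi204 stood at 0.36 and 1.47 RPKM (4.08-fold) and Ifi27l1 at 16.13 and 39.82 RPKM (2.47-fold). The call of Ifi27l1 was lost with the median of all ratios set to 0, where its log2 ratio was 0.78. Ifi203, a relative of Ifi204, was 1.34 and 1.6 RPKM, and Ifi30, a lysosomal thiol reductase, was 28.04 and 28.5 RPKM, both within 2-fold. Ifi205 and Ifi27l2b were below the limit in both libraries.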
